A study of Capra hircus with 2 samples.

Results

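The miR-29 family was followed in mammary small RNA of dairy goats (Capra hircus) between peak and late lactation. The family holds miR-29a, miR-29b and miR-29c, and its members were found as all sequenced tags that contain nt 2 to 17 of a mature 3p sequence. Of 659118 distinct tags in both libraries, 731 belonged to the family, with 341 tags of miR-29a, 189 of miR-29b and 190 of miR-29c. The other 11 tags could not be given to miR-29b or miR-29c and held 3 reads at peak lactation and 14 at late lactation. Each stage was a single library made from the pooled RNA of 5 goats, aged 4 years and in the third lactation according to the methods of the study, and the labels name no treatment or genetic change. The methods do not make clear whether the same goats gave both pools. Clean reads numbered 19044002 in the peak library and 7385833 in the late library. A tag is a distinct sequence, and its level is given as reads per 1000000 clean reads (RPM). With 1 pool per stage no test across animals was possible, and each difference below is between these 2 libraries. Intervals are 95% intervals that cover counting error only, because PCR copies of one molecule are counted separately and pooling removed the spread between goats.

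MicroRNAs guide Argonaute proteins to messenger RNAs, mostly through the seed, which is nt 2 to 8 of the mature strand. The miR-29 members share 1 seed and are known to repress collagens, elastin and other genes of the extracellular matrix, the DNA methyltransferases DNMT3A and DNMT3B, and the survival factor MCL1. In mammals they come from a pair of gene clusters, miR-29a with miR-29b-1 and miR-29b-2 with miR-29c. The mature miR-29b of both clusters is the same sequence, so its reads cannot be divided between them. In the RefSeq annotation of the goat assembly ARS1.2, 3 genes carried these names, MIR29A, MIR29B and MIR29C, and MIR29B and MIR29C lay on the same chromosome with 1 annotated gene between them. The authors aligned reads to a sheep genome, so no coordinates are given.

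The 3 sequences below are the forms that define the members in these reads. They are shown because a single base separates miR-29a from miR-29c, and every level in the text rests on telling them apart. They were read from the deposited tags, in which U is written as T, and the capitals mark the seed.
miR-29a: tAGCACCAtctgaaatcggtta
miR-29b: tAGCACCAtttgaaatcagtgtt
miR-29c: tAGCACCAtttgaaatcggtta

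Positions were counted from 1 at the 5′ end of these forms. From miR-29a to miR-29c the form carried C10T, and from miR-29c to miR-29b it carried G18A, T21G and A22T. The tags had no names, so the members were searched by the seed AGCACCA at nt 2 to 8. The pair of most abundant continuations up to nt 17 made up 98.7% of the reads with this seed at peak lactation and 99.1% at late lactation. They were named from the known conserved sequences, the base at nt 10 giving miR-29a and the base at nt 18 separating miR-29b from miR-29c. The 138 tags with reads only at peak lactation held 189 reads in all, at most 14 in one tag, and 466 tags had reads only at late lactation. Of the family's 731 tags, 265 were seen at peak lactation and 593 at late lactation. Of all 659118 distinct tags in both libraries, these numbers were 466727 and 259250. Among the 731 tags, 380 rested on a single read, while the 127 tags seen in both libraries held 99.3% of the family's reads at peak lactation and 96.8% at late lactation.

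Since miR-29a was abundant, a misread base at nt 10 could have passed for miR-29b or miR-29c. The 47 other single substitutions of miR-29a within nt 2 to 17 held from 0 to 160 reads at peak lactation, with the most at A14C, which came to 0.789% of the miR-29a reads that start at nt 1. At late lactation they held from 0 to 75 reads, with the most at A13C at 0.349%. The C10T form, which is miR-29b and miR-29c, held 2822 reads at peak lactation and 22586 at late lactation, or 13.9% and 105% of those miR-29a reads. The other substitutions at nt 10 held 9 reads in each library.

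All 3 members were more abundant at late lactation, but by very different amounts. MiR-29a had 24030 reads at peak lactation and 23011 in the shallower late library. Its level was 1262 RPM (interval 1246 to 1278) at peak lactation and 3116 RPM (3075 to 3156) at late lactation, 2.47-fold higher (2.42 to 2.51) or 1.30 on the log2 scale. MiR-29b had 1061 reads at peak lactation and 8939 at late lactation. Its level went from 55.7 RPM (52.4 to 59.2) to 1210 RPM (1185 to 1236), 21.7-fold higher (20.4 to 23.2) or 4.44 on the log2 scale. MiR-29c had 1884 and 14573 reads. Its level was 98.9 RPM (94.5 to 103) at peak lactation and 1973 RPM (1941 to 2005) at late lactation, 19.9-fold higher or 4.32 on the log2 scale (4.25 to 4.39). The counting intervals of miR-29b and miR-29c overlapped each other, and that of miR-29a lay far below both.

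The family as a whole had 26978 reads at peak lactation and 46537 at late lactation, or 1417 and 6301 RPM, which is 4.45-fold higher (4.38 to 4.52). At peak lactation miR-29a was nearly the whole family, with 89.1% of its reads (88.7 to 89.4), while miR-29b held 3.93% (3.70 to 4.17) and miR-29c 6.98% (6.68 to 7.29). At late lactation miR-29a held 49.4% (49.0 to 49.9), miR-29b 19.2% (18.9 to 19.6) and miR-29c 31.3% (30.9 to 31.7). The order of the levels, miR-29a above miR-29c above miR-29b, was the same at both stages. The ratio of miR-29a to miR-29c was 12.8 at peak lactation and 1.58 at late lactation, and that of miR-29a to miR-29b was 22.6 and 2.57. The ratio of miR-29c to miR-29b differed far less, with 1.78 (1.65 to 1.92) at peak lactation and 1.63 (1.59 to 1.67) at late lactation. These intervals overlapped narrowly, and no interval was computed for the change itself, so a small change is not excluded. Of the 4884 RPM by which the family was higher, miR-29c gave 38.4%, miR-29a 38.0% and miR-29b 23.6%. Because the tissue was taken whole, more cells that carry these miRNAs and more miRNA per cell cannot be told apart. Marker miRNAs of other cell types were not looked up by name here.

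**Figure D1:**
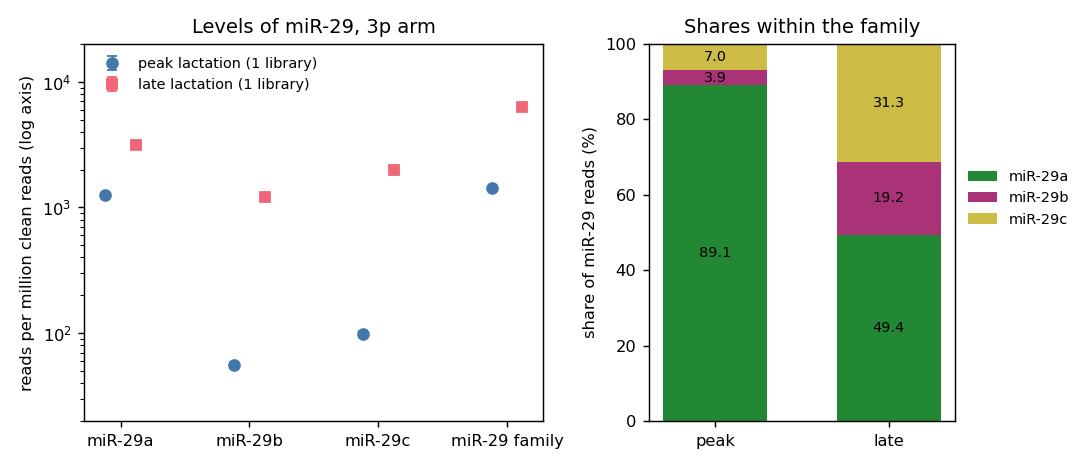
Left, reads per 1000000 clean reads (log axis) of each miR-29 member and of the family in the peak library (circles) and the late library (squares), with exact Poisson 95% intervals that are mostly smaller than the symbols. Right, share of the family's reads in % held by each member; miR-29a went from 89.1% at peak lactation to 49.4% at late lactation while miR-29b and miR-29c reached 19.2% and 31.3%.

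To set these values against the other small RNAs, tags were joined into groups that share nt 2 to 17 of their most abundant tag, with up to 1 base more or less at the 5′ end. Since miR-29b and miR-29c share these bases, they form 1 group. Of the 483 groups with at least 100 RPM in one library, 25.3% were at least 2-fold higher at late lactation, and the median log2 ratio was -0.44. All 3 members were past 2-fold. The group of miR-29a ranked 102nd of the 483 by its ratio, inside the 25.3%. Only 1.45% of these groups (7 groups) were at least 16-fold higher, and the group of miR-29b and miR-29c was one of them, ranked 7th. By level, the miR-29a group was the 55th most abundant at peak lactation and the 30th at late lactation. The group of miR-29b and miR-29c was the 292nd at peak lactation and the 29th at late lactation, where it passed the miR-29a group with 3155 against 3085 RPM.

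The 3 groups whose ratios lay nearest to each member are listed below by their leading tag, with nt 2 to 8 in capitals. They show which other small RNAs had a like ratio, and they carry no names in the files. Those near miR-29a lay within 0.023 of miR-29a on the log2 scale, and the remaining 3 were the nearest to both miR-29b and miR-29c.
near miR-29a, group 1: cGCGGGACatgtggcgtacggaagacc
near miR-29a, group 2: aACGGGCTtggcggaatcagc
near miR-29a, group 3: aGAGGGAGcctgagaaacggc
near miR-29b and miR-29c, group 1: aTTATGAAtatcttgacca
near miR-29b and miR-29c, group 2: aCAGCAGGcacagacaggcagt
near miR-29b and miR-29c, group 3: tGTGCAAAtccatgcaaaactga

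Group 1 near miR-29b and miR-29c had 82 reads at peak lactation and 780 at late lactation, a log2 ratio of 4.62. Group 2 had 213 and 2230 reads, a log2 ratio of 4.75, and group 3 had 587 and 3530 reads, a log2 ratio of 3.95. None of the 6 leading tags carried the miR-29 seed. The leading tag of group 2 near miR-29b and miR-29c contains the sequence of the study's PCR primer for bta-miR-214. The other groups were not matched to known sequences here. Likeness was measured on 1 log2 ratio per group from a single pair of libraries.

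**Figure D2:**
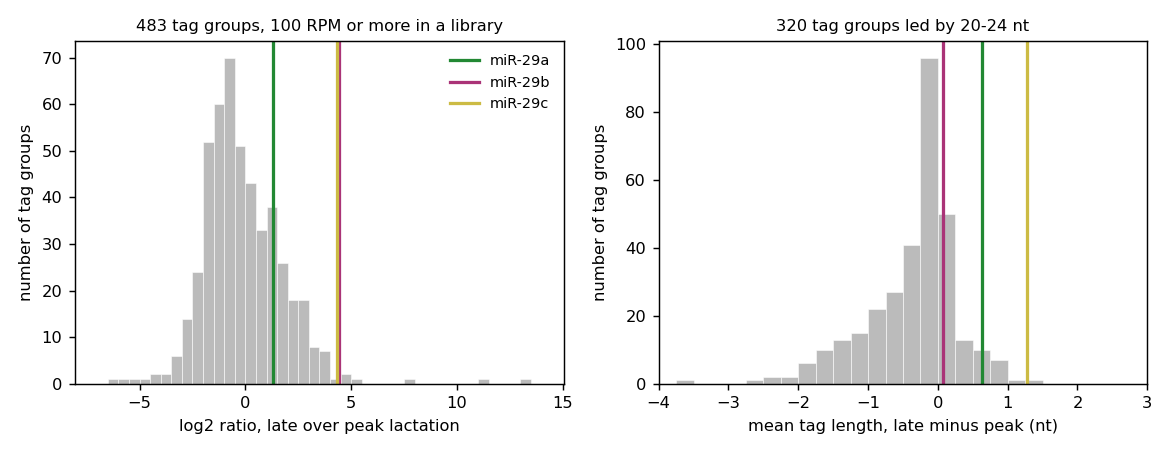
Left, number of tag groups (of 483 with at least 100 RPM in one library) by log2 ratio of late over peak lactation, in steps of 0.5, with a vertical line for each member at 1.30, 4.44 and 4.32. Right, number of tag groups by the difference in mean tag length in nt, for the 320 groups led by a tag of 20 to 24 nt that reached 100 RPM in one library and 100 reads in both; 2 groups below -4 nt are not drawn, and miR-29a and miR-29c lie on the side of longer tags.

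Beneath these sums, the length of the miR-29a and miR-29c tags differed strongly between the libraries, and the mean length of the miR-29b tags little. Of the 13 tags that were among the 3 most abundant of their member in either library, 10 are shown, because those of a member differ only at the 3′ end.
miR-29a, 20 nt: tAGCACCAtctgaaatcggt
miR-29a, 21 nt: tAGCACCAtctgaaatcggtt
miR-29a, 22 nt: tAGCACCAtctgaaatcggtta
miR-29a, 23 nt: tAGCACCAtctgaaatcggttaa
miR-29c, 19 nt: tAGCACCAtttgaaatcgg
miR-29c, 21 nt: tAGCACCAtttgaaatcggtt
miR-29c, 22 nt: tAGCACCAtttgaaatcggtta
miR-29b, 22 nt: tAGCACCAtttgaaatcagtgt
miR-29b, 23 nt: tAGCACCAtttgaaatcagtgtt
miR-29b, 24 nt: tAGCACCAtttgaaatcagtgtta

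For miR-29a the 21 nt tag led at peak lactation with 12095 reads (635 RPM) and had 5521 reads (748 RPM) at late lactation, only 1.18-fold higher. The 22 nt tag, which ends in one more A, had 2486 reads (131 RPM) at peak lactation and led at late lactation with 11043 reads (1495 RPM), 11.5-fold higher. The 20 nt tag had 3106 and 1090 reads, a fold of 0.905, and the 23 nt tag 341 and 1646 reads, a fold of 12.4. Thus the 20 and 21 nt tags stood at nearly the same level at both stages, and the 22 and 23 nt tags were far higher at late lactation. Summed over the tags of miR-29a that end at nt 21 or before without a departing base there, the level was 1044 RPM at peak lactation and 1075 RPM at late lactation. This was a log2 ratio of 0.04. Those that reach nt 22 or go past it had 165 and 1884 RPM, a log2 ratio of 3.51. Tags whose 3′ bases departed from the form were in neither sum, and had 52.1 and 156 RPM, a log2 ratio of 1.58.

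For miR-29c the 22 nt tag had 252 reads (13.2 RPM) at peak lactation and 8650 reads (1171 RPM) at late lactation, 88.5-fold higher. Its 21 nt tag had 628 and 2588 reads, 10.6-fold higher, and its 20 nt tag 360 and 396 reads, 2.84-fold higher. The 19 nt tag, with 453 reads (23.8 RPM) and 173 reads (23.4 RPM), stood at a fold of 0.985. The fold was larger with each added base up to 22 nt, and the 23 nt tag, with 33 and 1090 reads, was 85.2-fold higher.

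For miR-29b the 23 nt tag led at both stages with 696 and 4834 reads, 17.9-fold higher at late lactation. The 22 nt tag had 102 reads (5.36 RPM) and 2067 reads (280 RPM), 52.3-fold higher, and the 21 nt tag 63 and 169 reads, 6.92-fold higher. The 24 nt tag, with an A after nt 23, had 2 reads at peak lactation and 415 at late lactation, and its fold of 535 had a log2 interval from 7.20 to 12.11. Of the 13 tags named for the members, 10 were at least 2-fold higher at late lactation and 0 at least 2-fold lower. Of the 26175 tags that reached 1 RPM in one library, 30.7% were at least 2-fold higher and 10486 tags at least 2-fold lower. Since 4 of the 13 tags were named only for their place at late lactation, the choice of tags raised the count of 10. Of the 9 tags that were among the leading 3 at peak lactation, 6 were at least 2-fold higher. The 3 exceptions were the 20 and 21 nt tags of miR-29a and the 19 nt tag of miR-29c.

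As shares of each member, 60.9% of miR-29a reads (60.3 to 61.5) ended at nt 21 at peak lactation and 26.9% (26.3 to 27.5) at late lactation. Those ending at nt 22 made up 10.6% (10.2 to 11.0) and 49.7% (49.0 to 50.3). For miR-29c, reads ending at nt 19 made up 24.3% (22.3 to 26.3) at peak lactation and 1.23% (1.06 to 1.42) at late lactation, and reads ending at nt 22 made up 13.4% and 60.8%. MiR-29b was spread differently. Its reads ending at nt 23 made up 66.1% (63.1 to 68.9) and 56.0% (54.9 to 57.0), those at nt 22 10.3% and 24.3%, and those at nt 21 11.7% and 2.96%. Thus the 3′ ends of miR-29a and miR-29c were concentrated at nt 22 at late lactation, while those of miR-29b lay mostly at nt 22 and 23.

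**Figure D3:**
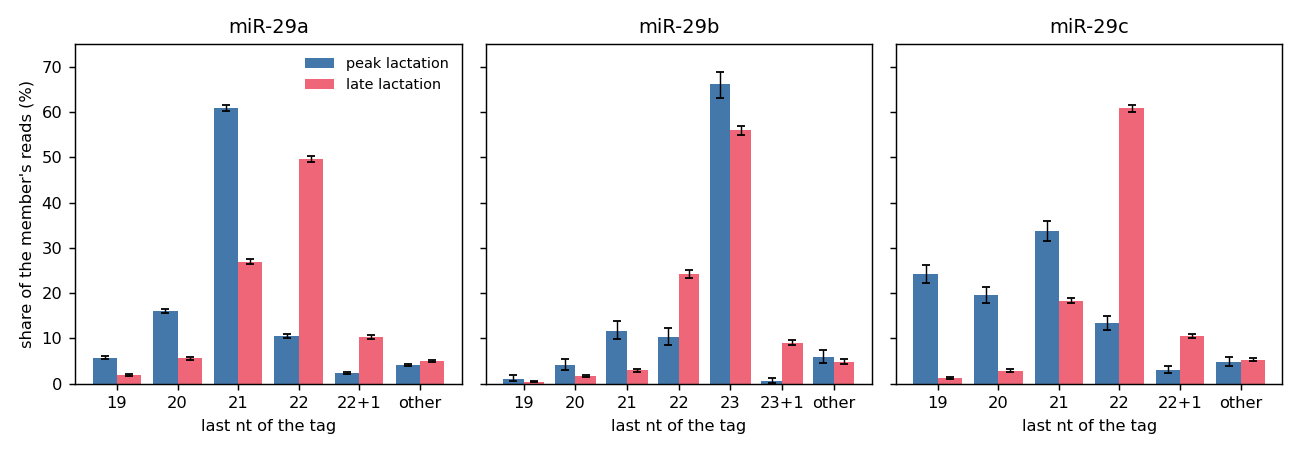
Share of each member's reads in % by the last nt of the tag, in the peak and late library, with exact binomial 95% intervals. The label 22+1 or 23+1 marks tags with 1 base past the last nt of the form shown in the text, and reads of miR-29a ending at nt 22 went from 10.6% to 49.7% while those of miR-29c went from 13.4% to 60.8%.

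Tags with 1 base past the last nt were also more frequent at late lactation for each member. An A followed nt 22 in 1.43% of miR-29a reads at peak lactation and 7.37% at late lactation, and in 1.75% and 7.62% of miR-29c reads. An A followed nt 23 in 0.283% and 4.93% of miR-29b reads, and a T in 0.189% and 3.79%. A G after nt 22 of miR-29c went the other way, with 1.06% and 0.357%. These shares were not computed for the other tag groups, so they are not known to be particular to miR-29. Whether such a base was copied from the gene or added to the finished miRNA was not tested, since hairpin sequences were not used here.

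The mean tag length of miR-29a was 21.1 nt (SD over reads 1.38) at peak lactation and 21.7 nt (SD 0.975) at late lactation, a difference of 0.64 nt. That of miR-29c was 20.6 nt (SD 1.57) and 21.9 nt (SD 0.935), a difference of 1.28 nt. For miR-29b it was 22.7 nt (SD 1.92) and 22.8 nt (SD 0.925), a difference of 0.07 nt with an SE of 0.06 from counting reads. Some tags over 30 nt hold a miR-29 sequence joined to other bases, and without them the difference of miR-29b was 0.21 nt. Most other small RNAs went the other way. Of 1195 groups with at least 100 reads in both libraries, 11.7% were at least 0.3 nt longer at late lactation, and the median difference was -0.29 nt. Among the 320 groups led by a tag of 20 to 24 nt with at least 100 RPM in one library, 9.38% were at least 0.3 nt longer and the median was -0.20 nt. The late library kept 73.9% of its high-quality reads through filtering, and the peak library 98.5%. Reads shorter than 18 nt came to 4.14% and 0.759%, respectively, and the part of this loss in the tag lengths was not tested.

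At the 5′ end the members differed from each other. This end sets the seed, so a tag that starts 1 base earlier reads the target with a seed moved by 1 base. At peak lactation 14.9% of miR-29a reads (14.5 to 15.4) carried a C before nt 1, and at late lactation 4.33% did (4.07 to 4.60). For miR-29b these shares were 9.24% (7.56 to 11.1) and 2.83% (2.50 to 3.20). For miR-29c they were only 0.531% (0.255 to 0.974) and 0.597% (0.478 to 0.736). The C form of miR-29a had 188 RPM at peak lactation and 135 RPM at late lactation, so it was lower by 0.48 on the log2 scale while miR-29a as a whole was higher. The C form of miR-29b had 5.15 and 34.3 RPM, a log2 ratio of 2.73, and that of miR-29c had 10 and 87 reads, a log2 ratio of 4.49. Counting any base before nt 1 and not C alone, the share was 14.9% and 5.29% for miR-29a, 9.24% and 4.26% for miR-29b, and 0.531% and 1.72% for miR-29c. By this wider measure 12% of the 1195 groups, in which miR-29b and miR-29c form 1 group, had a share at least 5 points lower at late lactation. Of the members miR-29a did, with -9.63 points, and miR-29b fell just short of this limit with -4.97 points. The C form also had a shorter 3′ end. Of the miR-29a reads that start at nt 1, 15.2% reached nt 22 at peak lactation and 62.5% at late lactation, and of the reads with the C before nt 1, 1.45% and 17.7% did.

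An A before nt 1 was found in 0 of 24030 miR-29a reads, 0 of 1061 miR-29b reads and 0 of 1884 miR-29c reads at peak lactation. A count of 0 allows up to 0.158 RPM in that library. At late lactation it made up 0.900% of miR-29a reads, 1.32% of miR-29b reads and 1.05% of miR-29c reads. This form was common in that library, since 26.2% of the 1195 groups had such an A in at least 0.5% of their late reads. As 5′ adaptor contaminants, 1402798 reads were removed from the late library and 9555 from the peak library, and the part of this difference in the extra A was not tested.

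**Figure D4:**
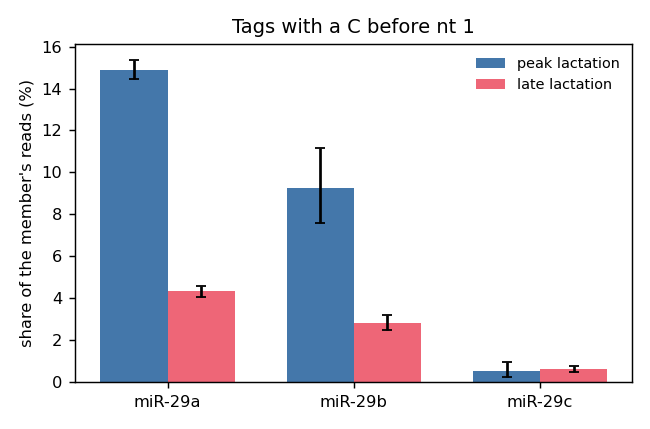
Share in % of each member's reads with a C before nt 1, in the peak and late library, with exact binomial 95% intervals. The share was 14.9% and 4.33% for miR-29a and 9.24% and 2.83% for miR-29b, and it was below 1% for miR-29c.

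The 5p arms come from the opposite side of the hairpin and are mostly degraded once the 3p strand is loaded. They tell the pair of miR-29b hairpins apart, which the mature miR-29b does not. Tags of 20 to 25 nt were searched for pairing with the members, and 4 arms were found, named from known sequences and shown with nt 2 to 8 in capitals.
miR-29a-5p: aCTGATTTcttttggtgttcaga
miR-29b-1-5p: gCTGGTTTcatatggtggtttaga
miR-29b-2-5p: cTGGTTTCacatggtggcttaga
miR-29c-5p: tGACCGATttctcctggtgtt

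MiR-29a-5p had 152 reads at peak lactation and 236 at late lactation, or 7.98 RPM (6.76 to 9.36) and 32.0 RPM (28.0 to 36.3), 2.00 higher on the log2 scale. This value depended on the start of the tag, since tags with nt 2 to 17 of the printed form had only 52 and 208 reads, a log2 ratio of 3.37. MiR-29c-5p had 117 and 207 reads, or 6.14 RPM (5.08 to 7.36) and 28.0 RPM (24.3 to 32.1), 2.19 higher on the log2 scale. The arms of miR-29b were different. MiR-29b-1-5p had 72 reads (3.78 RPM) and 21 reads (2.84 RPM), a log2 ratio of -0.41 with an interval from -1.19 to 0.31 that held 0. MiR-29b-2-5p had 113 reads (5.93 RPM) and 75 reads (10.2 RPM), a log2 ratio of 0.78 with an interval from 0.33 to 1.21. Of the 4 arms, 2 were at least 2-fold higher at late lactation and 0 at least 2-fold lower. Of the 9166 groups with at least 1 RPM in one library, 37.9% were at least 2-fold higher and 2700 groups at least 2-fold lower.

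MiR-29b-2-5p made up 61.1% (53.7 to 68.1) of the 5p reads of miR-29b at peak lactation and 78.1% (68.5 to 85.9) at late lactation. MiR-29b-1 shares its cluster with miR-29a and miR-29b-2 with miR-29c, and the 5p arms of the pair within a cluster had log2 ratios whose counting intervals did not overlap in either cluster. The ratio of 3p to 5p reads was 158 (135 to 187) for miR-29a at peak lactation and 97.5 (85.8 to 111) at late lactation. Against the miR-29a-5p tags with nt 2 to 17 of the printed form, it was 462 and 111. For miR-29c it was 16.1 (13.4 to 19.6) and 70.4 (61.4 to 81.1). For miR-29b, over both 5p arms, it was 5.74 (4.90 to 6.74) and 93.1 (76.2 to 115), 16.2 times as high at late lactation. At peak lactation the 3 members thus differed widely in this ratio, and at late lactation the interval of miR-29b overlapped those of miR-29a and miR-29c, which did not overlap each other.

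**Figure D5:**
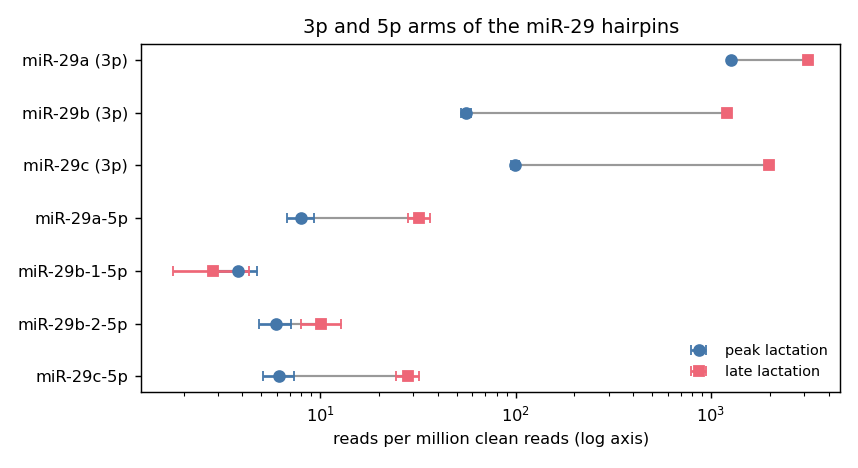
Reads per 1000000 clean reads (log axis) of the 3p sums and the 5p arms in the peak library (circles) and the late library (squares), joined by a line, with exact Poisson 95% intervals. The 3p of miR-29b went from 55.7 to 1210 RPM while miR-29b-1-5p had 3.78 and 2.84 RPM with overlapping intervals.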

How the data were processed

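Small RNA of 18 to 30 nt from mammary RNA of 5 goats, pooled at each stage, was ligated to adaptors, amplified with 15 PCR cycles and sequenced by the authors on an Illumina 1G Genome Analyzer. The authors removed low-quality reads, reads with 5′ adaptor contaminants, without an insert or 3′ adaptor, with poly(A) or shorter than 18 nt. They deposited the counts of each distinct tag, not normalized, mapped or named, with its length in nt (column of other values), and the counts of reads at each filtering step. No tool version for this filtering was found: not given in the sources used here.

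Here counts were scaled to 1000000 clean reads per library. One read was worth 0.0525 RPM in the peak library and 0.135 RPM in the late one, and a count of 0 was read as up to 3 reads, or 0.158 and 0.406 RPM. Intervals were exact Poisson (levels) and exact binomial, Clopper-Pearson (shares and ratios), at 95%. A value of 0 RPM was set to 0.01 RPM in the background. No test was run, and the study's own P values were not used. Counting and assignment were tested on simulated data.

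Named were the 3 members, their 3 most abundant tags in either library, the 5p arms, the substitutions of miR-29a, and the 3 groups of at least 100 RPM nearest to each member. The members and lists were chosen with earlier results of these data known. Mature and hairpin sequences were not used here, so 5p arms were searched after the data were seen. The 24130 tags of 20 to 25 nt with at least 10 reads were paired with the members by ViennaRNA 2.7.2, with an energy of at most -20 kcal/mol, at least 16 pairs and at most 1 unpaired base of asymmetry. This gave 18 tags of 4 arms, and all tags with nt 4 to 17 of the leading tag were summed. The further miR-29 names of the study, miR-29-3p, miR-29d and miR-29e, were not used here. The deposited tags carry no names, so tags counted under those names may be among the tags summed here, which was not tested. Tag groups replaced the named mature miRNAs as background. A group was opened by a tag with at least 0.1 RPM in one library.

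Alternatives were scaling by TMM (edgeR 4.0.16) or by median ratios (DESeq2 1.42.0), each computed on the 12263 tags with 10 or more reads per library and used for no test, totals without the 10 most abundant tags, tags that start at nt 1, 1 mismatch, at least 2 reads per tag, 1 added read and other filters. Python 3.11.15, numpy 2.4.6, scipy 1.17.1, matplotlib 3.10.9 and R 4.3.3 were used.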

Additional observations from a re-analysis of the deposited data

How the results depend on the processing

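No library could be left out, since each stage had 1. No paired analysis was possible because each stage had 1 pooled library and no test. Totals of reads that match known miRNAs, tags identical to a known mature sequence, tags without bases that differ from the hairpin, and the count of named mature miRNAs were not run, as these sequences were not used here. All 3 members and the family were higher in late lactation under every alternative run. The TMM and median-ratio factors and 1 added read left each member's log2 ratio within its counting interval, and the median-ratio factors gave the family 2.13. Totals without the most abundant tags (12 tags in all) added 0.085 to every log2 ratio, which gave 1.39 for miR-29a, 4.40 for miR-29c and 2.24 for the family. With tags that start at nt 1, the log2 ratio was 1.45 for miR-29a and 2.30 for the family, and the share of miR-29a was -39.0 points from peak to late lactation in place of -39.6.

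The choice of a single tag mattered far more, and it was tried after the data were seen. With the leading tag of peak lactation, the log2 ratios were 0.24, 4.16 and 3.41 for miR-29a, miR-29b and miR-29c, and 1.31 for the family. With the leading tag of late lactation they were 3.52, 4.16 and 6.47, and 4.20 for the family. The differences in share were then -47.5, 32.2 and 15.3 points with the first choice and -27.4, -0.56 and 27.9 points with the second, so the share of miR-29b turned from 15.3 points to a small negative value. These tags differ in length between members, and the end forms differ between the libraries.

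The length difference of miR-29a was 0.66 nt with at least 2 reads per tag, 0.69 nt with tags of at most 30 nt and 0.76 nt with tags that start at nt 1, and that of miR-29b was 0.19 and 0.21 nt with the first and second of these.

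The number of tags past 2-fold in either direction was 18531, of which 43.4% were higher in late lactation. It was 33840 (55.9% higher) without the most abundant tags, since the smaller totals let more tags pass the minimum of 1 RPM, 633717 (34.8% higher) without a filter and 3383 at a minimum of 10 RPM. For tag groups it was 6176 (56.3% higher), and 12665 (68.3%), 145142 (87.3%) and 1349 (42.7%) under the same settings. The 5p arms rested on 21 to 236 reads each, and single forms on as few as 2.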
